A study of Mus musculus with 7 samples.

Results

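The genes described here encode the CD28 and B7 family checkpoints, 10 of the 55335 genes in the deposited tables. They were taken by symbol, each symbol matched 1 identifier, and no expression value entered the choice. They comprise 2 costimulatory receptors (Cd28 and Icos), 3 inhibitory receptors (Ctla4, Pdcd1 and Btla) and 5 ligands (Cd80, Cd86, Icosl, Cd274 and Pdcd1lg2). The RNA came from sorted mouse heart cells with the surface phenotype CD45+, lineage-negative and ST2+. These are type 2 innate lymphoid cells (ILC2s), which carry no antigen receptor and make type 2 cytokines. The 3 naive libraries came from naive hearts. The 4 allograft libraries came from Balb/C hearts in C57BL/6 recipients, a model that develops acute rejection, taken 7 days after transplantation. Cells of 4 to 7 hearts were pooled for a library, so the pools and not the mice are the replicates. The labels record no genotype. The strain of the naive hearts, the sex and age of the mice, the antibodies of the lineage gate and whether graft ILC2s were of donor or recipient origin are not given in the sources used here.

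CD28 and ICOS are receptors of T cells that add a stimulatory signal to that of the antigen receptor, and both recruit the lipid kinase PI3K. CD28 binds CD80 and CD86 on antigen-presenting cells. CTLA-4 binds the same ligands more tightly and removes them from the partner cell. PD-1, the product of Pdcd1, binds PD-L1 (Cd274) and PD-L2 (Pdcd1lg2) and recruits phosphatases, and BTLA binds the TNF receptor family member HVEM. ICOS binds its ligand ICOSL (Icosl). ILC2s are known to carry both ICOS and ICOSL, whose contact supports their survival and cytokine output, and PD-1 is known to restrain activated ILC2s.

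The genes lie in a few clusters in GRCm38, the genome that the label mm10 refers to. Cd28 (chromosome 1, 60716800 to 60773359), Ctla4 (60887000 to 60915832) and Icos (60977927 to 61000320) are adjacent on the plus strand, with 113.6 kb between the first 2 and 62.1 kb between Ctla4 and Icos. Pdcd1 lies on the minus strand of the same chromosome (94038305 to 94052553). Cd274 (chromosome 19, 29367455 to 29388095) and Pdcd1lg2 (29410919 to 29471161) are adjacent, 22.8 kb apart. Cd86 (36603869 to 36666081, minus strand), Cd80 (38455561 to 38496335) and Btla (45224315 to 45257670) lie on chromosome 16 with other genes between them, and Icosl on chromosome 10 (78069302 to 78083913). All are protein-coding. Exons of another gene overlapped those of 1 member, Cd274, which has an antisense gene, AC119228.1, on the opposite strand. The use of strand in the counting is not given in the sources used here. Whether reads of AC119228.1 entered the Cd274 counts is therefore not known.

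The promoter windows of Ctla4, Cd274 and Pdcd1lg2 are shown because no Ctla4 count was found in 2 naive libraries, and because the adjacent genes Cd274 and Pdcd1lg2 had different patterns across the libraries. Each window runs from 250 bases before to 50 bases from the RefSeq start on, 5′ to 3′ along the gene, in GRCm38.p6. For Ctla4 and Cd80 the whole window lies inside the gene interval given above. Their RefSeq start is therefore not the first base of that interval, which the distances above use. Capitals mark matches to a searched motif.

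Ctla4 (chr1:60908775-60909074, plus strand): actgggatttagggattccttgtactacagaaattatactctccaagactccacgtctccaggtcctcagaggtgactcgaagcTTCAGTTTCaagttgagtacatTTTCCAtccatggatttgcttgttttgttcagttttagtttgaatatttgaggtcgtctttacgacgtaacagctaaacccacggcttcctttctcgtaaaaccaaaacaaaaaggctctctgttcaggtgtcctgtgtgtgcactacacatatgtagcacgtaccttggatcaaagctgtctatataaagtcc
Cd274 (chr19:29367188-29367487, plus strand): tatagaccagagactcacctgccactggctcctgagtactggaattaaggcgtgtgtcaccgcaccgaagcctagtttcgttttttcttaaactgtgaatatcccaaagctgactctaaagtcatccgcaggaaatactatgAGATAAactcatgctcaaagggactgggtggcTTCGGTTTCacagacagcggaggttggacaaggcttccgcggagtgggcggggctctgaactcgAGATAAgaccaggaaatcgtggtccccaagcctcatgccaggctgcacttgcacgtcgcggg
Pdcd1lg2 (chr19:29410669-29410968, plus strand): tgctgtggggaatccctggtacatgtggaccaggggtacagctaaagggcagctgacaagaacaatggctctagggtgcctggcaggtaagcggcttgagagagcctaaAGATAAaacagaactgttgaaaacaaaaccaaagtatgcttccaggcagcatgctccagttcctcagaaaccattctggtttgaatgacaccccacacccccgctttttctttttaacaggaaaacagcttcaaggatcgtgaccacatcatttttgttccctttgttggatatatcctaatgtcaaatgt

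Letters of 5 factor families were searched on both strands. For STAT factors these were TTCNNNGAA, and 8.30% of 32851 mouse promoter windows of this length held them. For IRF factors they were GAAANNGAA (8.56% of windows), and for NFAT the core TGGAAA (21.4% of windows). GATA factors were represented by AGATAA (11.2% of windows) and AP-1 by TGANTCA (7.81% of windows). The matches in the members' windows did not overlap one another.

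Windows were available for 7 of the 10 members. The Cd274 window held the GATA letters at 108 and at 12 bases before the start and the IRF letters, on the other strand, at 76 bases before it. Pdcd1lg2 held the GATA letters at 141 bases before the start and none of the other motifs. Ctla4 held the IRF and NFAT letters, both on the other strand, at 166 and 144 bases before the start. Of the windows not printed, Btla held the IRF letters at 210 and Cd80 the AP-1 letters at 42 bases before the start. A match describes letters only.

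Total counts lay between 43591167 and 53044907 in the naive and between 29107326 and 44023726 in the allograft libraries. Levels are given as CPM (counts scaled to the library total). A count of 0 allowed up to 3 counts, or 0.0566 to 0.103 CPM, and these limits cover counting error only. Naive replicate 2 stood apart. Its 10 ILC2 markers (Il1rl1, which encodes ST2, Gata3, Rora, Il7r, Thy1, Klrg1, Il5, Il13, Areg and Ptprc) summed to 170 CPM, against 5206 and 7099 CPM in naive replicates 1 and 3 and 6350 to 6926 CPM in the allografts. The sum of 8 nephron markers was 10242 CPM there, against 69.8 to 276 CPM in the other 6 libraries. Mitochondrial transcripts made up 26.5% of its counts, against 2.04% to 3.11% in the other 6. The number of genes with a count was 15820, 20254 and 13864 in naive replicates 1 to 3 and 19235 to 21354 in the allograft libraries. Naive replicates 1 and 3 were thus below every allograft library, and naive replicate 2 lay within the allograft range. Whether the counts of 0 in naive replicates 1 and 3 reflect this lower number of genes was not tested. Because naive replicate 2 stood apart, the fold change of each member is given with and without it. In pooled cells a lower level can mean fewer cells with the transcript or less of it per cell, which cannot be told apart.

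**Figure D1:**
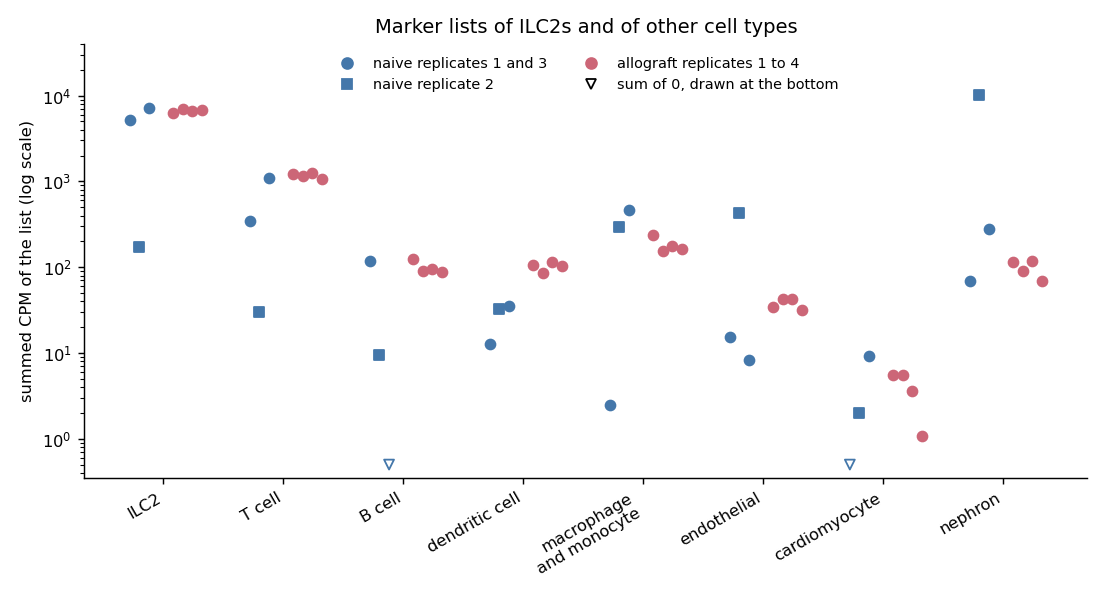
Summed CPM (log axis) of the marker lists of ILC2s and of 7 other cell types in each library; squares are naive replicate 2 and open triangles are sums of 0. Naive replicate 2 had 170 CPM of ILC2 markers and 10242 CPM of nephron markers. The sum of the dendritic cell markers, though not each of them, was higher in all 4 allografts than in all 3 naive libraries.

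None of the 10 members differed between allograft and naive libraries at an adjusted p under 0.05 (edgeR's quasi-likelihood test, Benjamini-Hochberg over 17015 genes), where 0.0353% of all genes tested passed. At an unadjusted p under 0.05 the count of members was also 0, where 10.3% of genes passed. All 10 members passed the low-count filter. Fold changes (log2, allograft over naive) were above 0 for 8 of 10 members, with a median of 1.55, against 49.4% of genes tested and a median of -0.01. Without naive replicate 2 they were above 0 for 8 of 10, with a median of 0.93, against 58.7% and 0.23. In that fit 0 members passed the adjusted threshold, where 3.1% of 18037 genes did. At an unadjusted p under 0.05 the members were Cd28, Icos and Pdcd1lg2, 3 of 10, where 20.2% of genes passed. Leaving out naive replicate 1 in its place gave 1 member past the adjusted threshold, Ctla4 (0.568% of genes passed).

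For 3 of 10 members, Cd28, Cd86 and Pdcd1lg2, the lowest allograft value was above the highest naive value, where 12.5% of genes tested did so. No member was lower in all allografts than in all naive libraries (2.15% of genes). Without naive replicate 2 the same 3 members did so (21% of genes), and Icos was lower in every allograft than in naive replicates 1 and 3 (1 of 10, where 7.15% of genes were).

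**Figure D2:**
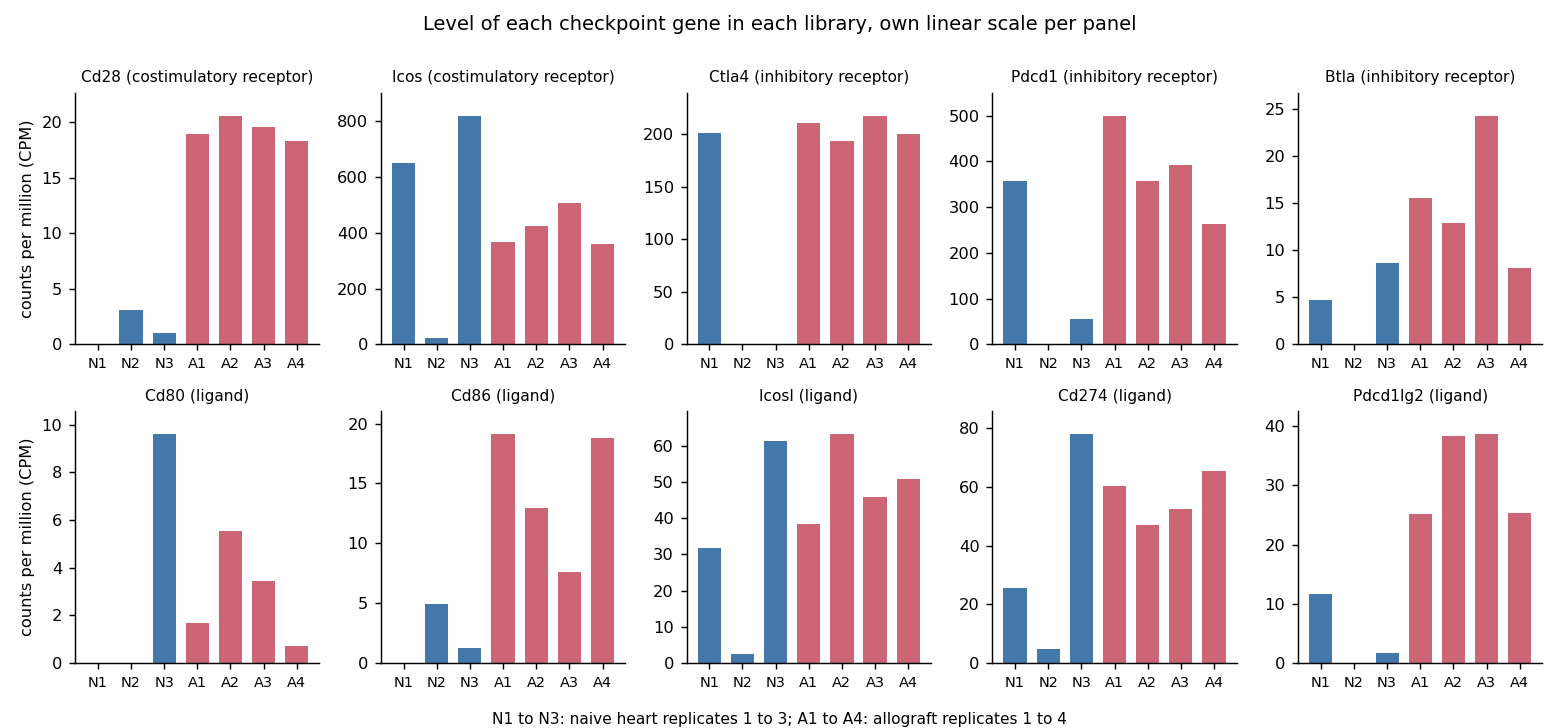
CPM of each member in each library, with blue bars for naive and red bars for allograft libraries and a separate linear axis from 0 in each panel. Cd28, Cd86 and Pdcd1lg2 were higher in all 4 allografts than in all 3 naive libraries, and Ctla4 was at 0 in naive replicates 2 and 3 and at about the allograft level in naive replicate 1.

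Cd28 (ENSMUSG00000026012), the receptor that gives T cells their main costimulatory signal, had 0, 3.10 and 1.03 CPM in naive replicates 1 to 3. In allograft replicates 1 to 4 it had 18.9, 20.6, 19.6 and 18.3 CPM. The groups did not overlap, and the allografts lay close together (19.3 ± 0.963 CPM, SD, n = 4). The log2 fold change was 3.34 (SE 1.65, adjusted p = 0.577 by edgeR's test). Without naive replicate 2 it was 5.15 (SE 1.82, adjusted p = 0.203).

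Icos (ENSMUSG00000026009), the costimulatory receptor known on ILC2s, had 648, 21.9 and 817 CPM in naive replicates 1 to 3. In allograft replicates 1 to 4 it had 367, 422, 506 and 360 CPM. With all libraries the groups overlapped because naive replicate 2 was lowest, while naive replicates 1 and 3 were above all 4 allografts. The log2 fold change was -0.30 (SE 0.849, adjusted p = 0.962). Without naive replicate 2 it was -0.88 (SE 0.223, adjusted p = 0.0945), the smallest adjusted p of a member in that fit, from 733 ± 119 CPM (SD, n = 2) to 414 ± 67.6 CPM (SD, n = 4).

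Among the inhibitory receptors, Ctla4 (ENSMUSG00000026011) had 201 CPM in naive replicate 1 and 0 counts in naive replicates 2 and 3, which allows at most 0.0659 and 0.0688 CPM. In the allografts it had 211, 194, 218 and 200 CPM. Naive replicate 1 lay within the allograft range, and the other 2 naive libraries lay far below it. The log2 fold change was 1.63 (SE 2.30, adjusted p = 0.898), and 1.01 (SE 1.93, adjusted p = 0.836) without naive replicate 2. Without naive replicate 1 both naive libraries were at 0. The allograft mean was then 3052-fold their mean limit of 3 counts, with an adjusted p of 0.0203 by edgeR's test. This call rested on leaving out the 1 naive library that held the transcript. Of the 2 naive libraries left, naive replicate 2 had only 170 CPM of ILC2 markers. Naive replicate 3 had the fewest genes with a count of all libraries, 13864. Naive replicate 3 had no Ctla4 count although its ILC2 markers summed to 7099 CPM and its Icos level was 817 CPM.

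Pdcd1 (ENSMUSG00000026285), which encodes PD-1, had 357, 0 and 55.2 CPM in the naive libraries. In the allografts it had 499.5, 358, 391 and 264 CPM. Naive replicate 1 lay within the allograft range and naive replicate 3 below it. The log2 fold change was 1.46 (SE 1.74, adjusted p = 0.867), and 0.85 (SE 0.689, adjusted p = 0.547) without naive replicate 2. Btla (ENSMUSG00000052013) had 4.68, 0 and 8.69 CPM in naive and 15.5, 12.9, 24.3 and 8.11 CPM in allograft libraries. Allograft replicate 4 lay below naive replicate 3, so the groups overlapped, and the log2 fold change was 1.73 (SE 1.57, adjusted p = 0.809), or 1.13 (SE 0.656, adjusted p = 0.370) without naive replicate 2.

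Of the ligands of CD28 and CTLA-4, Cd86 (ENSMUSG00000022901) had 0, 4.92 and 1.26 CPM in naive replicates 1 to 3. In the allografts it had 19.1, 12.9, 7.56 and 18.8 CPM. All 4 allografts were above all 3 naive libraries, and the log2 fold change was 2.34 (SE 1.70, adjusted p = 0.746). Without naive replicate 2 it was 4.46 (SE 1.91, adjusted p = 0.252). Cd80 (ENSMUSG00000075122) was scarce. It had 0, 0 and 9.59 CPM in naive and 1.66, 5.52, 3.43 and 0.721 CPM in allograft libraries, so that the highest and the lowest values were both naive. Its log2 fold change was -0.25 (SE 2.23, adjusted p = 0.992). It was -0.84 (SE 1.93, adjusted p = 0.870) without naive replicate 2, and the sign turned without naive replicate 3, when the naive libraries were both at 0.

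Markers of other cells that can carry these genes also differed in level between the libraries. The 9 dendritic cell markers (Zbtb46, Flt3, Itgax, Xcr1, Clec9a, Cd209a, Clec10a, Siglech and Fscn1) summed to 86.1 to 116 CPM in the allografts, where all 9 were above 3 counts in each library. In naive replicates 1 to 3 their sum was 12.7, 32.4 and 34.9 CPM, with 1, 7 and 3 of the 9 above 3 counts. Zbtb46, a transcription factor of classical dendritic cells, had 0, 5.06 and 0.895 CPM in naive and 27.2 to 44.3 CPM in allograft libraries, and Itgax was at 0 in all naive libraries. Together 5 of the 9 were higher in every allograft than in every naive library (12.5% of genes tested were). These 5 were Zbtb46, Itgax, Flt3, Clec9a and Clec10a. The other 4 overlapped. Of those, Cd209a was highest in naive replicate 2 (18.2 CPM), and Xcr1 and Fscn1 in naive replicate 3 (30.9 and 3.05 CPM). The 7 B cell markers used summed to 117, 9.50 and 0 CPM in naive and 87.4 to 125 CPM in allograft libraries. Fcer2a did not pass the low-count filter and was not among the genes tested. Of the 7, 3 were higher in every allograft than in every naive library (12.5% of genes tested were), and 4 overlapped. The 3 were Cd79a, Blk and Ms4a1. Ms4a1, which encodes the B cell antigen CD20, was at 0 in all 3 naive libraries and at 13.6 to 34.1 CPM in the allografts. Of the other 4, Cd79b was highest in naive replicate 1, at 117 CPM against 34.6 to 47.7 CPM in the allografts. It made up nearly all of that library's sum. Cr2 was highest in naive replicate 2, at 4.46 CPM. The 8 macrophage and monocyte markers counted summed to 2.49, 295 and 466 CPM in naive and 155 to 235 CPM in allograft libraries. Most of that came from Lyz2, at 2.49, 183 and 432 CPM in naive and 122 to 191 CPM in allograft libraries. All 8 overlapped between the groups. Cd68 was at 0 in naive replicates 1 and 3 and at 11.7 to 27.8 CPM in the allografts, while Csf1r and C1qb were highest in naive replicate 2. The part of these cells in the levels of Cd86, Cd80, Cd28, Btla and Pdcd1lg2 was not tested.

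The 11 T cell markers summed to 348, 30.4 and 1085 CPM in naive and 1065 to 1263 CPM in allograft libraries. Most of that came from Trbc1, Trbc2 and Cd3g. Cd4, Cd8a, Cd5 and Foxp3 did not pass the low-count filter and were not among the genes tested. Of the 11, 3 were higher in every allograft than in every naive library (12.5% of genes tested were). These were Trac (5.06 to 10.6 CPM in naive and 12.5 to 19.6 CPM in allograft libraries), Cd3g (6.00 to 124 and 175 to 219 CPM) and Trbc2 (10.97 to 363 and 383 to 481 CPM). Cd3d stood at 3.57 to 8.64 CPM in the allografts and was highest in naive replicate 3, at 32.5 CPM. The other markers were low in the allografts, with Cd3e at 0.278 to 1.24 CPM, Cd4 at 0 to 0.721 CPM, Cd8a at 0 to 2.25 CPM, Cd8b1 at 0 to 2.64 CPM, Cd5 at 0 to 0.273 CPM and Foxp3, the factor of regulatory T cells, at 0 to 0.309 CPM. The part of T cells in the levels of Cd28, Icos, Ctla4, Pdcd1 and Btla was not tested.

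Icosl (ENSMUSG00000000732), the ligand of ICOS, was found at 31.9, 2.44 and 61.3 CPM in the naive libraries. Its allograft values were 38.4, 63.1, 45.9 and 50.8 CPM. Naive replicate 1 was below all 4 allografts, and naive replicate 3 was above 3 of them. The log2 fold change was 0.58 (SE 0.790, adjusted p = 0.890). Leaving out naive replicate 2 gave 0.03 (SE 0.378, adjusted p = 0.979).

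The PD-1 ligands differed from each other in pattern. Cd274 (ENSMUSG00000016496), which encodes PD-L1, had 25.5, 4.77 and 77.9 CPM in naive and 60.3, 46.9, 52.5 and 65.6 CPM in allograft libraries. The highest and the lowest values were again naive, and the log2 fold change was 0.57 (SE 0.721, adjusted p = 0.876), or 0.06 (SE 0.473, adjusted p = 0.966) without naive replicate 2. Pdcd1lg2 (ENSMUSG00000016498), which encodes PD-L2, had 11.7, 0 and 1.70 CPM in naive and 25.2, 38.3, 38.6 and 25.4 CPM in allograft libraries. All 4 allografts were above all 3 naive libraries, and the log2 fold change was 2.83 (SE 1.59, adjusted p = 0.653). Leaving out naive replicate 2 gave 2.22 (SE 0.812, adjusted p = 0.219). Both of their promoter windows, printed above, held the GATA letters, and the IRF letters were found in that of Cd274. The difference between the 2 fold changes was not tested.

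**Figure D3:**
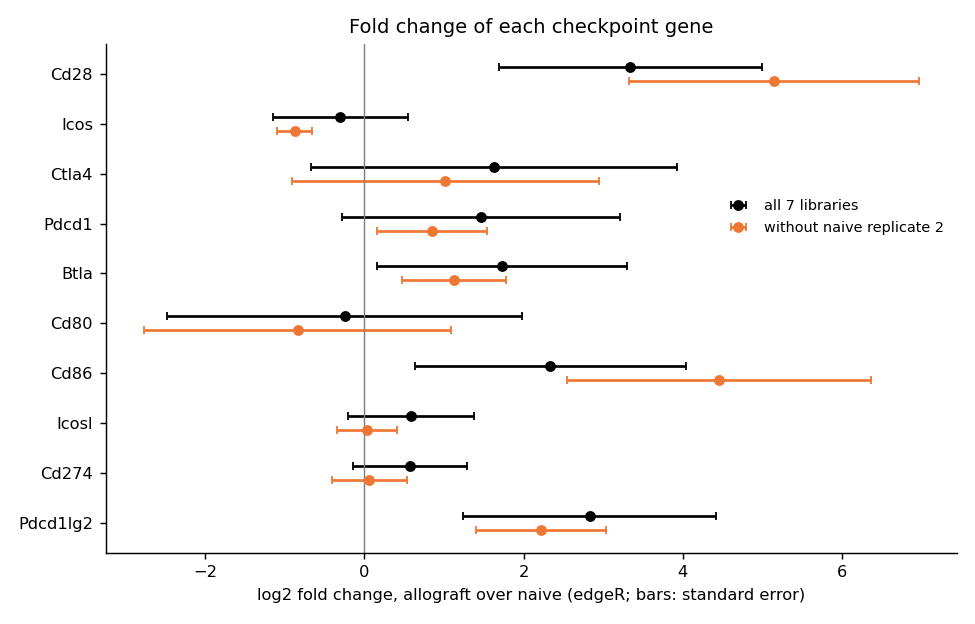
Log2 fold change of each member, allograft over naive, with its standard error, for all 7 libraries (black) and without naive replicate 2 (orange). The orange bars are shorter than the black ones for every member but Cd28 and Cd86, and the Icos value moved from -0.30 to -0.88.

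Levels were compared between genes on the deposited FPKM, which is scaled to gene length. In the allografts the order of the medians was Pdcd1 (168 FPKM), Icos (99.1), Ctla4 (76.0), Pdcd1lg2 (14.1), Cd274 (13.4), Icosl (9.07), Cd86 (3.74), Btla (3.60), Cd28 (2.70) and Cd80 (0.590). The ranges of Pdcd1 (118 to 222 FPKM) and Icos (90.9 to 128 FPKM) overlapped, although Pdcd1 was above Icos in each of the 4 libraries. Neighbours also overlapped among Pdcd1lg2, Cd274 and Icosl and among Cd86, Btla and Cd28. No overlap was found between Icos and Ctla4 (72.1 to 81.1 FPKM), between Ctla4 and Pdcd1lg2, between Icosl and Cd86, or between Cd28 and Cd80. The 3 receptors at the top were above 95.1% or more of the tested genes by allograft median, and Cd28 was above 51.6%.

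**Figure D4:**
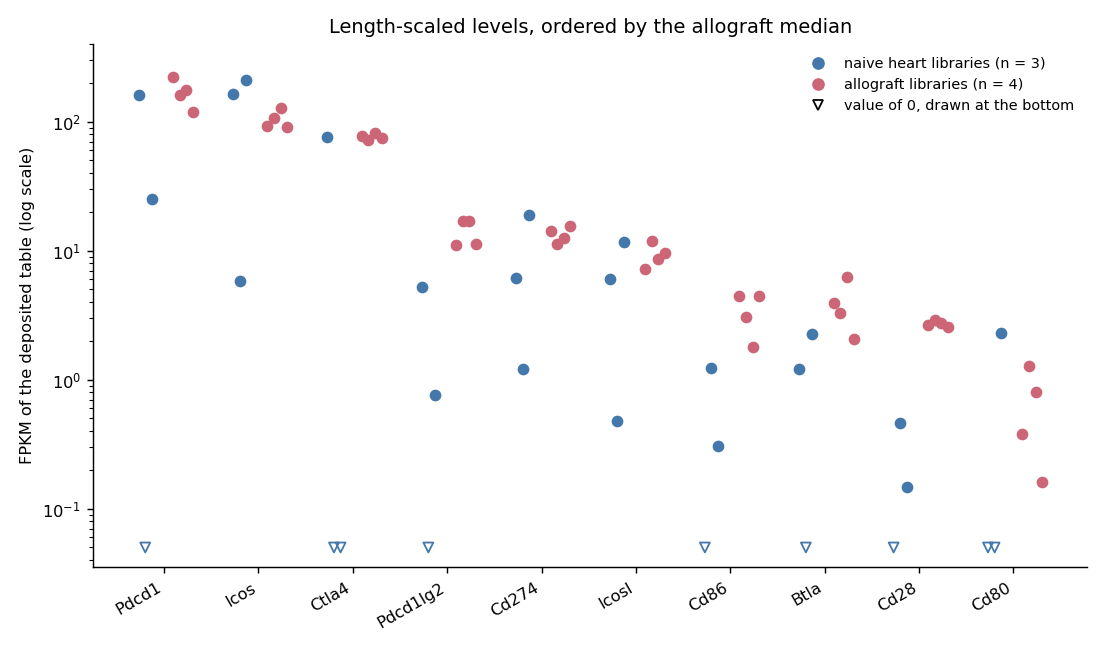
FPKM of each member (log axis) in naive (blue) and allograft (red) libraries, ordered by the allograft median, with open triangles for values of 0. In the allografts Pdcd1, Icos and Ctla4 were all at 72.1 FPKM or more and every ligand at 17.1 FPKM or less.

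In the naive libraries Icos came first in all 3, at 165, 5.84 and 210 FPKM. Pdcd1 came next in naive replicates 1 and 3, at 162 and 25.3 FPKM. The ratio of Icos to Pdcd1 within a library, in FPKM, was 1.02 and 8.32 in naive replicates 1 and 3 and 0.413, 0.664, 0.727 and 0.768 in allograft replicates 1 to 4. Naive replicate 2 gave no ratio because Pdcd1 was at 0. This ratio and the next were chosen after the values were seen and were not tested. Ctla4 exceeded Cd28, its partner for the same ligands, 29.4-, 24.9-, 29.3- and 28.8-fold in allograft replicates 1 to 4, in FPKM. No naive library held counts of both genes.

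Over the 7 libraries, the gene most like each member was found by Pearson's r of log2 CPM among 9666 genes (9667 for Cd80) with an average log2 CPM of at least 3. It was Zbtb46 for Cd28 (r = 0.996), Bcl7c for Icos (0.998), Golm1 for Ctla4 (0.9996), Lime1 for Pdcd1 (0.999) and Il4 for Btla (0.996). It was Klf6 for Cd80 (0.982), Ly6d for Cd86 (0.990), Ankrd44 for Icosl (0.998), Nrgn for Cd274 (0.992) and Sms for Pdcd1lg2 (0.9998). The 7 points share their libraries, with 3 naive values that lie far apart for most members, and between 98 and 1006 genes had an r above 0.9 with a member, so these values describe a shared order of libraries only. Golm1 was, like Ctla4, at 0 in naive replicates 2 and 3, with 57.4 CPM in naive replicate 1 and 41.7 to 54.0 CPM in the allografts.

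The surrounding pathway was described by 4 lists with 44 genes, 41 of them tested. With all libraries, 0 of the 41 passed the adjusted threshold in either direction by edgeR, and 5 had an unadjusted p under 0.05, where 10.3% of all genes did. Leaving out naive replicate 2 gave 2 past the adjusted threshold (3.1% of all genes) and 8 at an unadjusted p under 0.05 (20.2% of all genes). Of the 7 tested family partners, 5 were higher in every allograft than in every naive library (12.5% of all genes were), and the median log2 fold change was 1.96 (-0.01 over all genes). In the fit without naive replicate 2 the median was 1.47 (0.23 over all genes), and again 5 were higher in every allograft (21% of all genes). Tnfsf14, which encodes LIGHT, a ligand of HVEM, had the smallest p of this list. It had 7.67, 0.418 and 3.12 CPM in naive and 28.0, 28.8, 23.3 and 36.5 CPM in allograft libraries (log2 fold change 2.93, adjusted p = 0.287). The fit without naive replicate 2 gave 2.40 (adjusted p = 0.0708). Tnfrsf14, which encodes HVEM itself, the ligand of BTLA, was at 1.75 CPM or lower in all 7 libraries. It had 0.189, 0 and 0 CPM in naive and 0.250, 1.67, 0.245 and 1.75 CPM in allograft libraries (log2 fold change 3.86, adjusted p = 0.572 by edgeR's test). The fit without naive replicate 2 gave 3.29 (adjusted p = 0.385). Tnfrsf14 was among the 5 partners higher in every allograft, but by 11 and 10 counts in allograft replicates 1 and 3 against 10 in naive replicate 1. Of the other B7 genes, Vtcn1 had no count, and Cd276 was found in 1 library only, at 1.94 CPM in allograft replicate 2.

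The 15 signalling genes downstream of CD28 and ICOS had a median log2 fold change of 0.54. The median was 0.09 without naive replicate 2, where that over all genes was 0.23. Of the 15, 4 were higher in every allograft than in every naive library (12.5% of all genes were). Without naive replicate 2, 4 were higher (21% of all genes) and 2 were lower in every allograft (7.15% of all genes). Lck, a kinase that phosphorylates the tail of CD28, had the smallest p, with 26.2, 3.34 and 58.6 CPM in naive and 72.4 to 89.9 CPM in allograft libraries (log2 fold change 1.39, adjusted p = 0.605). It was 0.87 (adjusted p = 0.264) without naive replicate 2. The 8 phosphatases and adaptors of the inhibitory receptors had a median of 0.43, and of 0.38 without naive replicate 2. Ptpn6, which encodes the phosphatase SHP-1, had 20.7, 21.0 and 5.16 CPM in naive and 63.4, 52.6, 67.5 and 45.0 CPM in allograft libraries. The groups did not overlap (log2 fold change 1.58, adjusted p = 0.388, and 2.11 with 0.123 without naive replicate 2). Ptpn6 was 1 of 4 genes of these 8 that were higher in every allograft than in every naive library (12.5% of all genes were). Without naive replicate 2 there were again 4 (21% of all genes). Ptpn11, which encodes SHP-2, the main partner of PD-1, had a log2 fold change of 0.52 (adjusted p = 0.688), and of 0.56 (0.328) in the fit without that library.

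Of the 11 transcription factors known to act on checkpoint genes, 6 were higher in every allograft than in every naive library, where 12.5% of all genes were, and the median log2 fold change was 0.86 (-0.01 over all genes). Leaving out naive replicate 2 gave 6 such genes (21% of all genes) and a median of 0.61 (0.23 over all genes). Tbx21, which encodes T-bet, a repressor of Pdcd1 in T cells, had the smallest p. It was at 0 in all 3 naive libraries and at 7.95, 4.32, 1.74 and 3.13 CPM in the allografts. The allograft mean of 4.28 CPM was 67.2-fold the mean naive limit of 3 counts, 0.0638 CPM. The adjusted p by edgeR's test was 0.144, or 0.0446 without naive replicate 2. Irf1, an interferon-induced activator of Cd274, was the other gene of these lists past the threshold without naive replicate 2 (log2 fold change -1.71, adjusted p = 0.0437), and it was named after its values were seen. It had 150, 42.0 and 142 CPM in naive and 58.1, 48.1, 46.6 and 31.0 CPM in allograft libraries. Naive replicates 1 and 3 were above all 4 allografts, and naive replicate 2 lay within their range.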

How the data were processed

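RNA of 7 libraries was analysed. The authors deposited raw counts per gene and FPKM (fragments scaled to gene length and depth) for 55335 identifiers. Per the submitters' processing notes, FastQC 0.11.5, STAR 2.5.3a, StringTie 1.3.1c and DESeq2 1.16.1 were used with mm10, without their roles. The annotation, filters and use of strand are not given in the sources used here. Per the labels' protocols, full-length cDNA was amplified before library construction, without mention of molecular identifiers, so reads are not independent molecules.

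Columns were matched to samples by library name (0 columns left over). CPM used the deposited totals. Groups were compared with edgeR 4.0.16 under R 4.3.3 (quasi-likelihood F-test, TMM, filterByExpr, Benjamini-Hochberg at 0.05 over 17015 genes, no covariate). The script was tested on simulated data with the same spread for every gene and no library set apart. That test therefore does not cover data with a library like naive replicate 2. Standard errors are the fold change divided by the root of F. Alternatives were DESeq2 1.42.0, limma 3.58.1 on counts and on log2(FPKM + 1) and log2(FPKM + 0.1), other scaling and filters, each library left out, and a replicate block. The members, lists, markers and naming rule (all members, the smallest p of each list, the gene most like each member) were chosen with earlier results of these data known. Of the list genes, Tnfrsf14, Vtcn1, Cd276, Ptpn11, Irf1 and Irf4 were named outside this rule. The marker Itgam was left out because 2 identifiers shared its symbol, and 1 B cell marker is not reported here. Positions came from GENCODE M21 and promoters from RefSeq (GRCm38.p6).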

Additional observations from a re-analysis of the deposited data

How the results depend on the processing

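The number of members past the adjusted threshold was 0 in the edgeR fit and in 14 of the 15 alternatives. It ran from 0 to 1 over the fits that left out 1 library. At an unadjusted p under 0.05 there was 1 member with DESeq2 (Cd28), which gave no p for Ctla4. There were 2 with limma voom and sample quality weights, 6 with limma on log2(FPKM + 1) and 4 on log2(FPKM + 0.1). The share of all genes under that p was not counted in these settings, so these member counts cannot be set against it. List genes past the threshold numbered 0, but 4 with DESeq2 (Tnfsf14, Tbx21, Irf4 and Irf1, the last lower), 1 with log2(FPKM + 1), 2 with log2(FPKM + 0.1) and 0 to 2 with 1 library left out. Over all genes 6 passed, against 1012 with DESeq2, 1 with limma voom, 76 with log2(FPKM + 1), 201 with log2(FPKM + 0.1), and 0 to 560 with 1 library left out (0 without any one allograft library, 107, 560 and 7 without naive replicates 1, 2 and 3). With a replicate block the 3 counts were 0, 0 and 0. The deviations of same-numbered libraries from their group means had r of 0.017, -0.020 and 0.036. Pairs of unlike number ran from -0.087 to 0.076, so the same-numbered ones did not stand out. This check cannot settle whether a number marks libraries handled together. DESeq2 size factors moved the median of all genes from -0.01 to -0.20 and turned no member's direction.

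The log2 fold change of Icos was -0.30, but 0.39 with limma voom, 0.75 and 0.81 with log2(FPKM + 1) and log2(FPKM + 0.1), 0.45 with the replicate block and -0.88 to 0.29 with 1 library left out (0.29 without naive replicate 3). That of Cd80 was -0.25, but 5.46, 0.11, 1.13 and 6.92 in the same 4 settings. It was 0.08 without allograft replicate 4 and 9.76 without naive replicate 3. In the latter fit both naive libraries were at 0, and the allograft mean was 46.2-fold their mean limit of 3 counts. The lowest Cd80 value with 1 library left out was -0.84. The cause was not tested. The other 8 members kept their direction in all 15 alternatives. The order of levels by CPM per implied gene length equals that by FPKM by construction and tests nothing. Member levels under 10 CPM, such as all those of Cd80, rest on at most 418 counts of amplified cDNA.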
